A study of Mus musculus with 14 samples.

Results

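The integrated stress response and its neighbours were followed through 10 genes, Atf4, Atf5, Ddit3, Chac1, Trib3, Asns, Sesn2, Xbp1, Hspa5 and Hspd1, chosen by name for their roles, with earlier results of these data known, out of 27099 genes counted. RNA came from Nes-GFP+ BMSCs, bone marrow stromal cells marked by a green reporter under regulatory elements of the nestin gene, which were sorted into a Nes-GFP high and a Nes-GFP low population and amplified with Smart-seq2. AML mice were primary iMLL-AF9 mice, which express rtTA from the ROSA26 locus and the human MLL-AF9 fusion from a tetracycline-response element, and were given doxycycline until leukemia was evident. From them came 2 high and 4 low libraries. Normal mice carried the same Nes-GFP reporter, were described as given sucrose water as vehicle, and yielded 2 high and 6 low libraries. Mice of either sex were used at 8 to 12 weeks, and the ages at which leukemia was evident and cells were sorted were not given in the sources used here. The effects of AML and of doxycycline cannot be told apart. Some libraries were pools of mice, and whether replicates always came from different mice is not given in the sources used here, so p-values measure only the spread between these libraries. Cells were sorted as negative for CD45, CD31 and DAPI, and the methods of the study add Ter119, an erythroid antigen that the sample descriptions leave out.

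The integrated stress response is the pathway by which cells answer amino acid shortage, haem shortage, viral RNA or misfolded protein in the endoplasmic reticulum (ER). Stress kinases phosphorylate the initiation factor eIF2, translation slows in general, and the mRNA of Atf4 is translated more, so that much of the control of Atf4 lies at translation and not in its mRNA level. ATF4 and its partners then switch on genes for amino acid supply, for a second wave of transcription factors and for feedback. In parallel, misfolded protein in the ER activates IRE1, which splices Xbp1 mRNA, and ATF6, and these raise ER chaperones such as the product of Hspa5. Gene counts do not show the phosphorylation of eIF2, the translation of Atf4 or the splicing of Xbp1.

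A few short stretches near the start sites are shown because they carry the classical binding motifs of these pathways, searched on both strands in the 250 bases before each RefSeq start (GRCm38.p6; 12 windows for the 10 genes, 32851 in all). The C/EBP-ATF composite site, written TGATGNAA, was found at Asns and, on the opposite strand, at Chac1, and in 3.45% of all windows. The ER stress element, CCAAT and CCACG with 9 bases between them, was found at Hspa5 only among the 10 genes and in 0.113% of all windows. The core of the unfolded protein response element, TGACGTG, was also found at Hspa5, and in 1.65% of all windows. A heat shock element, GAANNTTCNNGAA, was found at Hspd1, overlapping a further match on the opposite strand, and in 0.466% of all windows. Capitals mark the match, and each stretch reads 5′ to 3′ on the strand of the gene.
Asns, chr6:7693220-7693237, minus strand: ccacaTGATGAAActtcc
Chac1, chr2:119351044-119351061, plus strand: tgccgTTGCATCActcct
Hspa5, ER stress element, chr2:34772020-34772048, plus strand: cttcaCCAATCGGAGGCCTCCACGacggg
Hspa5, response element core, chr2:34771928-34771944, plus strand: agcaaTGACGTGagttg
Hspd1, chr1:55088054-55088076, minus strand: ttccgGAAGGTTCTAGAAcggac
The stretches of Asns and Hspd1 and the ER stress element of Hspa5 lie inside longer GENCODE models of the same genes, and those of Chac1 and the core at Hspa5 lie outside them. A match is a run of letters and says nothing of binding in these cells.

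Each library held 5615941 to 11436652 counts, with transcripts of 14842 to 20197 genes, fewest in normal Nes-GFP high replicate 1. Levels are given in CPM, counts scaled to the size of the library after TMM normalization. The sort was checked by its markers. Nes was at 32.3 and 26.7 CPM in AML high and at 2.27 and 36.0 CPM in normal high. It was at 0 to 5.70 CPM in the low libraries, so that normal high replicate 1 went against its label on this gene. The summed level of 13 stromal genes, Cxcl12 and Lepr among them, ran from 982 to 83990 CPM. Libraries also held blood cell RNA, with 15 myeloid genes summing to 798 to 104600 CPM, highest in AML low replicate 3 and normal low replicate 3, and 13 erythroid genes summing to 41.4 to 9117 CPM. Ptprc, which encodes CD45, reached 483 CPM in normal low and 447 CPM in AML low, whereas the endothelial Pecam1 (CD31) stayed at or under 47.5 CPM. That highest Pecam1 level was in normal high replicate 1, which held 109 CPM of Ptprc. Of the high libraries it had the largest myeloid and erythroid sums, 34640 and 3172 CPM, and also the largest stromal sum, 83990 CPM. In such bulk libraries fewer cells of a type and less RNA per cell cannot be told apart.

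Per kilobase of exon, Hspa5 had the highest median level over the 14 libraries, 294 CPM per kb, followed by Atf4 at 116, Xbp1 at 95.8, Hspd1 at 42.3, Ddit3 at 27.3, Asns at 11.7, Atf5 at 5.41 and Sesn2 at 4.04. Chac1 and Trib3 had a median of 0. Neighbours in this order overlapped across libraries: Atf4 ranged from 13.4 to 180 CPM per kb and Xbp1 from 12.6 to 198. The genes also differed in how steady they were. Hspa5 varied 4.59-fold between its lowest and highest library, Atf4 13.4-fold, Xbp1 15.8-fold and Ddit3 19.7-fold, whereas Hspd1 varied 68.5-fold, Sesn2 147-fold, Asns 180-fold and Atf5 279-fold. All 10 genes but Chac1 and Trib3 had reads in every library.

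**Figure D1:**
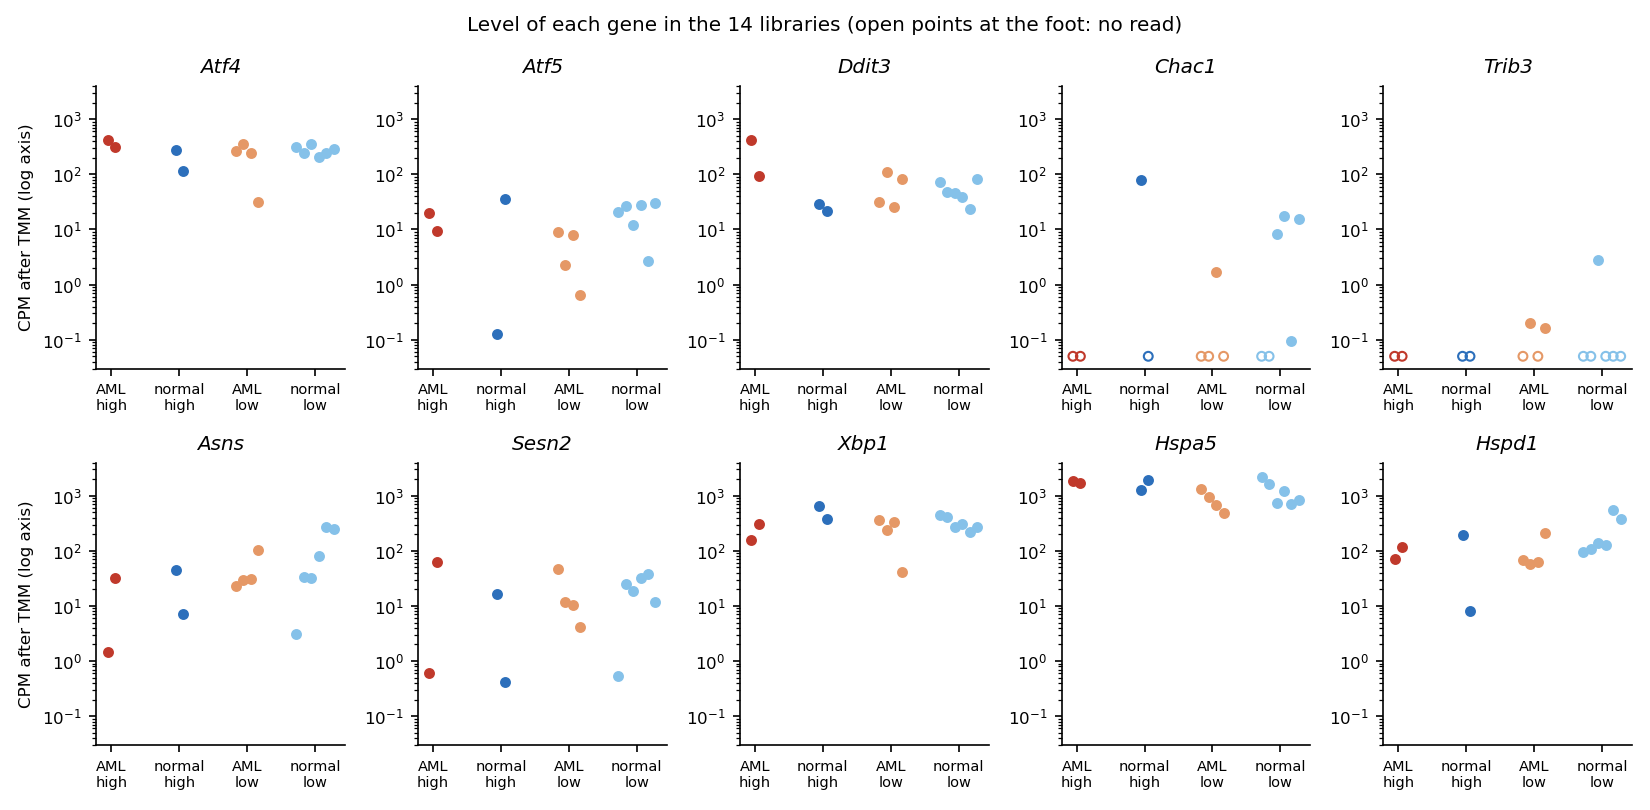
Level of each of the 10 genes in the 14 libraries, in CPM after TMM on a log axis, with 1 point per library, grouped by mouse and population. Open points at the foot are libraries with no read. Ddit3 was highest in AML high replicate 1, at 424 CPM, and Chac1 had a read in 1 of the 4 high libraries.

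No gene of the 10 passed the test in any comparison, and neither did any other gene. AML was compared with normal mice in each population, the AML effects of both populations were compared with each other, and high was compared with low cells in normal and in AML mice. In each of these 5 comparisons edgeR's quasi-likelihood test with Benjamini-Hochberg adjustment called 0 of the 9 genes that passed the filter on low counts, and 0% of 18152 genes tested; Trib3 did not pass the filter. At an unadjusted p under 0.05 there were 2 of the 9 genes in AML against normal high, beside 12.2% of all genes, 0 in the low population, beside 5.54%, and 1 in the difference between populations, beside 9.96%. High against low gave 0 in normal mice, beside 11.2%, and 1 in AML mice, beside 8.97%. DESeq2 called 2 of the genes, Ddit3 and Chac1, in AML against normal high, where it called 9.9% of all genes, and 0 in the low population, where it called 0.738%. It called 1 gene, Chac1, in the difference between populations, beside 4.93% of all genes, and in high against low cells of AML mice, beside 6.82%, and 0 in normal mice, beside 10.5%. Both calls of Chac1 set AML high libraries with no read against few reads. The mean of AML low lay only 1.21-fold above a floor of 3 counts per library in AML high. Among the high libraries only normal high replicate 1 had reads of Chac1, at 79.3 CPM. limma voom with sample quality weights called none of the 9 genes in any comparison. Of all genes it called 1 in high against low cells of AML mice and 0 in every other comparison.

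Among the transcription factors, Ddit3 had the largest difference between AML and normal mice in the Nes-GFP high population. It encodes CHOP, a factor induced by ATF4 that is known for promoting cell death under lasting stress. Its level was 424 and 93.6 CPM in AML high and 28.6 and 21.6 CPM in normal high, so that the groups did not overlap. In the low population the AML libraries held 31.0, 112, 25.1 and 83.3 CPM and the normal ones 23.0 to 81.2 CPM with a median of 46.8, and the groups overlapped widely. The log2 fold change of Ddit3 in the high population was 3.37 (SE 0.97, 95% interval 1.28 to 5.45, 2 against 2 libraries), with an edgeR adjusted p of 0.271 and a DESeq2 adjusted p of 0.00616. The value rested in part on AML high replicate 1: without it the log2 fold change was 1.87. In the low population the log2 fold change was 0.28 (SE 0.57, edgeR adjusted p = 0.9999), and the difference between populations was 3.08 (SE 1.09, 95% interval 0.73 to 5.43, edgeR adjusted p = 0.426). Without AML high replicate 1 this difference was 1.58. High cells of AML mice also exceeded low cells of AML mice in Ddit3 by 2.04 on the log2 scale (SE 0.73, edgeR adjusted p = 0.524), or by 0.59 without that library.

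AML high replicate 1 stood apart in other stress genes as well. The 18 cytosolic heat shock genes, among them Hspa1a, Hspa1b and Dnajb1, summed to 15020 CPM there and to 3681 CPM in AML high replicate 2, against 5196 and 4015 CPM in normal high. The next highest heat shock sum, 9935 CPM, was in AML low replicate 2, the library with the second highest Ddit3. Other libraries did not follow this order. AML high replicate 2 and AML low replicate 4, with Ddit3 at 93.6 and 83.3 CPM, had heat shock sums of 3681 and 3486 CPM. Normal low replicate 5, with a heat shock sum of 5966 CPM, had Ddit3 at 23.0 CPM. The 18 immediate early genes, which answer within minutes to handling and growth signals, reached a sum of 36800 CPM in AML high replicate 1 but 9611 CPM in its partner, beside 15060 and 7320 CPM in the normal pair. They were also high, at 32730 and 31170 CPM, in normal low replicates 1 and 2, where Ddit3 was at 72.8 and 47.4 CPM. The next highest sum, 27180 CPM, was in AML low replicate 2, where Ddit3 was at 112 CPM. The part of these genes in the level of Ddit3 was not tested. A limit of counting also applies to Ddit3: its exons share 68 bases with those of Mars on the opposite strand and 105 bases with a further Ensembl gene of the same name, and whether the counting used strand is not given in the sources used here. Mars, which encodes methionyl-tRNA synthetase, was lower in AML high, at 65.0 and 88.0 CPM, than in normal high, at 179 and 162 CPM.

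Atf4, the central factor, was even across most libraries. It was at 425 and 312 CPM in AML high and 277 and 115 CPM in normal high, which did not overlap, with a log2 fold change of 0.91 (SE 0.80, edgeR adjusted p = 0.758). Among low libraries the AML group held 267, 361, 239 and 31.6 CPM and the normal group 210 to 349 CPM, with a median of 266. The low value was AML low replicate 4, the library with the fewest counts, which also had the lowest Xbp1 and Hspa5. The log2 fold change in the low population was -0.28 (SE 0.52, edgeR adjusted p = 0.9999), and it was 0.11 without that library. In the high population, 3 of the 9 genes tested, Atf4, Ddit3 and Xbp1, had groups that did not overlap, beside 27.5% of all genes, and in the low population 0 did, beside 1.11%.

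Atf5, a related factor that is likewise translated more when eIF2 is phosphorylated and that guards mitochondrial protein folding, was low and uneven. It was at 19.6 and 9.31 CPM in AML high and at 0.126 and 35.2 CPM in normal high, where the 2 normal libraries lay on either side of the AML ones. AML low libraries held 9.08, 2.30, 8.04 and 0.652 CPM, and normal low libraries 2.71 to 30.0 CPM with a median of 23.6. Only normal low replicate 5, at 2.71 CPM, fell into the range of the AML libraries. The log2 fold change of -1.99 (SE 1.16, 95% interval -4.50 to 0.52, edgeR adjusted p = 0.9999, 4 against 6 libraries) was the second largest in size among the 9 genes there, after Chac1, and lay between -2.43 and -1.61 when any 1 library was left out. Atf5 shares 82 exon bases with Nup62 and with Il4i1 on the opposite strand.

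**Figure D2:**
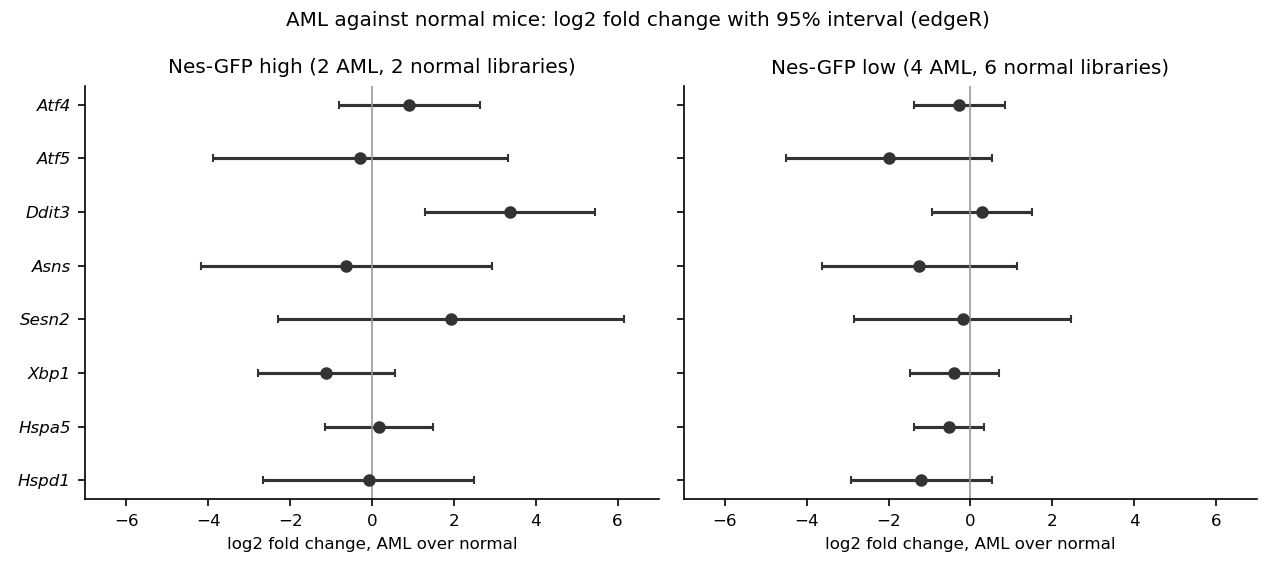
Log2 fold change of AML over normal mice in the Nes-GFP high (left) and low (right) population for 8 of the genes, with 95% intervals from edgeR. Chac1, which had no read in AML high, and Trib3, which was not tested, are left out. The interval of Ddit3 in the high population, 1.28 to 5.45, was the only one of those drawn that left out 0.

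Chac1 and Trib3, targets further down the pathway, were mostly silent. CHAC1 degrades glutathione and TRIB3 is a pseudokinase that restrains ATF4 and AKT signalling. Chac1 had no read in either AML high library and was at 79.3 and 0 CPM in normal high. AML low libraries held 0, 0, 1.66 and 0 CPM of it, and normal low libraries 0, 0, 8.21, 17.6, 0.0936 and 15.3 CPM. Reads were thus found in 1 of 6 AML libraries and in 5 of 8 normal libraries, 3 of them in the low population above every AML library. Against a floor of 3 counts per library, Chac1 was at least 116-fold lower in AML high than the mean of normal high, but that mean came from normal high replicate 1 alone. That library had the fewest genes seen, little Nes and the largest myeloid and erythroid sums of the high libraries. DESeq2 called this difference (adjusted p = 3e-06) and edgeR did not (adjusted p = 0.4002). In the low population the log2 fold change was -3.97 (SE 2.46, edgeR adjusted p = 0.9999). Trib3 was at 2.74 CPM in normal low replicate 3, at 0.200 and 0.163 CPM in AML low replicates 2 and 4, and had no read in the other 11 libraries. These last values lie under the 3-count floor, so that a difference in Trib3 was not detectable at this depth.

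Asns and Hspd1 were highest in the same low libraries, those with the most erythroid RNA. Asns encodes asparagine synthetase, a classical target of ATF4 through the composite site printed above, and Hspd1 encodes HSP60, the chaperonin of the mitochondrial matrix. Asns was at 22.9, 29.2, 30.3 and 103 CPM in AML low and at 3.11, 33.4, 31.5, 80.4, 268 and 247 CPM in normal low. Hspd1 was at 68.2, 57.2, 64.0 and 215 CPM in AML low and at 94.1, 107, 136, 128, 544 and 380 CPM in normal low. For both genes the 3 highest of all 14 libraries were normal low replicates 5 and 6 and AML low replicate 4. These were also the 3 with the largest erythroid sums, 9117, 7803 and 8689 CPM, the next being 3561 CPM.

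The log2 fold change of AML over normal low was smaller in size for both genes without those 3 libraries, an alternative chosen after seeing the data. Asns had a log2 fold change of -1.25 (SE 1.11, 95% interval -3.63 to 1.13, edgeR adjusted p = 0.9999), and -0.41 without them. Hspd1 had a log2 fold change of -1.20 (SE 0.80, 95% interval -2.92 to 0.53, edgeR adjusted p = 0.9999), and -0.87 without them. Normal low replicates 5 and 6, among those left out, had the highest levels of both genes. Leaving them out lowers the normal level by construction, so the smaller values cannot show a part of erythroid RNA. Without AML low replicate 4 alone the values were larger in size, -1.96 for Asns and -1.84 for Hspd1. Of the 13 erythroid genes, 12 were below 0 in AML against normal low, with a median log2 fold change of -1.55. AML high held 1.49 and 32.4 CPM of Asns and normal high 45.3 and 7.23 CPM. AML high held 70.2 and 116 CPM of Hspd1 and normal high 190 and 7.94 CPM. Both groups overlapped for both genes. In the normal pair the library with more erythroid RNA, replicate 1 at 3172 against 199 CPM, had more of both genes. In the AML pair the library with more erythroid RNA, replicate 1 at 175 against 45.4 CPM, had less of both. The part of erythroid cells in these levels was not tested.

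Reads of Hspd1 may be split with a near-identical copy, so that its level is uncertain to that extent. The pseudogene Hspd1-ps3 had counts of 15.6% to 23.6% of those of Hspd1 in every library, and its centred log2 levels were the nearest of all 10758 genes compared to those of Hspd1, with a root mean square difference of 0.19 against a median of 1.94. The next was Rars, arginyl-tRNA synthetase, at 0.44. Hspd1 also shares 112 exon bases with Hspe1, its partner HSP10, on the opposite strand. Hspe1 was at 49.5 to 307 CPM in AML low and at 47.5 to 277 CPM in normal low.

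**Figure D3:**
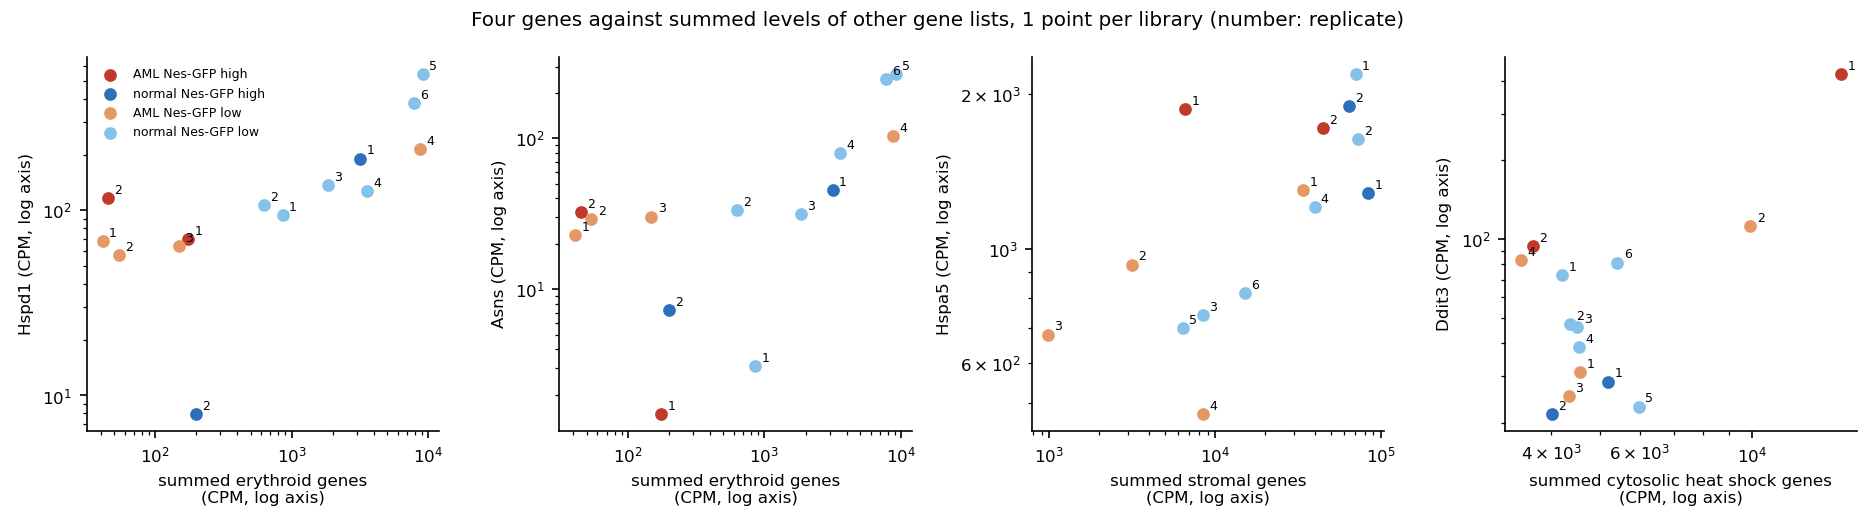
Levels of Hspd1 and Asns against the summed erythroid genes, of Hspa5 against the summed stromal genes and of Ddit3 against the summed cytosolic heat shock genes, all in CPM on log axes, with 1 point per library and its replicate number. The 3 libraries with erythroid sums of 7803 to 9117 CPM had the 3 highest levels of Hspd1 and of Asns.

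Sesn2, an ATF4 and p53 target that restrains mTORC1 when amino acids are short, followed no group. It was at 0.619 and 62.7 CPM in AML high, at 16.1 and 0.425 CPM in normal high, at 47.0, 11.9, 10.4 and 4.07 CPM in AML low and at 0.536 to 37.7 CPM in normal low, with a median of 21.7. Each of the 4 groups spanned more than a factor of 10. Its log2 fold change was 1.93 in the high population (SE 1.96, edgeR adjusted p = 0.828) and -0.19 in the low population (SE 1.23, edgeR adjusted p = 0.9999), and leaving out single libraries turned the sign of both.

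Of the ER arm, Xbp1 was lower in both AML high libraries than in both normal ones, whereas the groups overlapped for Hspa5. Xbp1 encodes the factor made active by IRE1 splicing. It was at 159 and 311 CPM in AML high and at 644 and 372 CPM in normal high, without overlap, with a log2 fold change of -1.11 (SE 0.78, 95% interval -2.80 to 0.57, edgeR adjusted p = 0.622). The AML low group held 356, 240, 339 and 40.9 CPM of Xbp1 and the normal low group 217 to 447 CPM, with a median of 292, and the log2 fold change was -0.40 (SE 0.50, edgeR adjusted p = 0.9999). Without AML low replicate 4 this was -0.03.

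Hspa5 encodes BiP, the HSP70 chaperone of the ER lumen, which also holds the stress sensors inactive. It was at 1871 and 1718 CPM in AML high and at 1284 and 1893 CPM in normal high, with a log2 fold change of 0.18 (SE 0.61, 95% interval -1.14 to 1.49, edgeR adjusted p = 0.998). Low libraries of AML mice held 1301, 931, 680 and 476 CPM and those of normal mice 699 to 2187 CPM, with a median of 1012, and the log2 fold change was -0.52 (SE 0.40, 95% interval -1.38 to 0.34, edgeR adjusted p = 0.9999). Among the low libraries, the 4 with the highest Hspa5, normal low replicates 1, 2 and 4 and AML low replicate 1 at 1205 to 2187 CPM, were the 4 with the largest stromal sums, 33900 to 72870 CPM. The other low libraries held 476 to 931 CPM of Hspa5 beside stromal sums of 982 to 15070 CPM. In both high pairs the order by stromal sum was reversed. Normal high had 1284 and 1893 CPM of Hspa5 beside stromal sums of 83990 and 64140 CPM. AML high had 1871 and 1718 CPM beside 6621 and 44700 CPM. Single stromal genes did not all follow the sum. In normal high replicates 1 and 2, Cxcl12 was at 6689 and 42630 CPM and Lepr at 233 and 1389 CPM, in the order of Hspa5. In AML high both genes followed the sum. Normal low replicate 4 held 5985 CPM of Cxcl12 and 140 CPM of Lepr, less than normal low replicate 6 at 10040 and 410 CPM. Of the 13 stromal genes, 12 were below 0 in AML against normal low, with a median of -1.27, and their part in the level of Hspa5 was not tested. The genes most like Hspa5 across the 14 libraries were Yipf3, a Golgi membrane protein, and Pdia3, a disulfide isomerase of the ER, with root mean square differences of 0.29 and 0.30 on the centred log2 scale against a median of 1.56.

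High cells were then compared with low cells of the same kind of mouse. In AML mice 2 of the 9 genes, Atf5 and Hspa5, had groups that did not overlap, beside 15.7% of all genes, and in normal mice 0 did, beside 11.3%. Hspa5 was at 1871 and 1718 CPM in AML high and at no more than 1301 CPM in AML low, a log2 difference of 1.08 (SE 0.51, 95% interval -0.02 to 2.19, edgeR adjusted p = 0.565). Atf5 was at 19.6 and 9.31 CPM in AML high and at no more than 9.08 CPM in AML low, a log2 difference of 1.52 (SE 1.40, edgeR adjusted p = 0.757). In normal mice the log2 differences of high over low were -1.04 for Ddit3 (SE 0.77, edgeR adjusted p = 0.604), 0.66 for Xbp1 (SE 0.61, edgeR adjusted p = 0.699) and 0.39 for Hspa5 (SE 0.49, edgeR adjusted p = 0.818). These comparisons share libraries with those of AML against normal mice.

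Since normal high replicate 1 had little Nes, the values of the genes that used it were also taken without it. The log2 fold change of AML over normal high was then 3.67 for Ddit3, 1.79 for Atf4, -1.19 for Atf5, -0.54 for Xbp1 and 0.03 for Hspa5. It was 1.37 for Asns, 6.31 for Sesn2 and 3.67 for Hspd1, each far from the value with both libraries. For these genes the normal high group gave no stable level. Nor did it for Atf5, at 0.126 and 35.2 CPM in that group, or for Chac1, at 79.3 and 0 CPM. High over low in normal mice was then -1.41 for Ddit3, 0.06 for Xbp1 and 0.48 for Hspa5.

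As a set, the 9 genes tested had a median log2 fold change of -0.08 in AML against normal high, beside 0.08 over all genes. This median ran from -0.55 without AML high replicate 2 to 1.58 without normal high replicate 1. Of the 9, 4 were above and 5 below 0, where 52.1% of all genes were above 0. Among low libraries the median of the 9 was -0.52 beside 0.00 over all genes. It ran from -1.08 to -0.31 when any 1 library was left out. There 8 of the 9 were below 0 and Ddit3 above, where 50.2% of all genes were above 0. None of the 9 had an unadjusted p under 0.05 in edgeR's test there. Leaving out AML low replicate 4 brought Atf4 to 0.11 and Xbp1 to -0.03, and leaving out normal low replicate 5 brought Asns to -0.73 and Hspd1 to -0.72. The median of the difference between populations was 1.11 beside 0.14 over all genes, and 2.68 without normal high replicate 1. That of high over low was -0.48 beside -0.27 in normal mice, or -1.41 without normal high replicate 1, and 0.71 beside -0.10 in AML mice, or -0.51 without AML high replicate 2.

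The wider pathway was described by 9 lists of genes, none of whose members passed edgeR's test in either AML comparison. Levels of single list genes in a high group are given with the lower first, whatever the replicate number. Summed levels are given in replicate order. With 2 against 2 libraries, the medians of the lists in the high population depended on single libraries, and 8 of the 9 turned sign when 1 of them was left out, the exception being ER associated degradation and translocation. Of 29 further ATF4 target genes, 12 were above and 17 below 0 in the high population, with a median of -0.60, and 14 above and 15 below in the low population, with a median of -0.01. The median in the high population was 0.81 without normal high replicate 1, -0.05 with a replicate block and -0.09 with voom. Their smallest p-values in the high population belonged to genes that differed in opposite directions. Cth, which makes cysteine from cystathionine, was at 26.4 and 43.7 CPM in AML high and at 0 to 0.284 CPM in normal high (log2 fold change 7.85, SE 2.75, edgeR adjusted p = 0.321). Pycr1, which makes proline, was at 0.619 and 1.57 CPM in AML high and at 60.7 and 186 CPM in normal high (log2 fold change -6.80, SE 1.97, edgeR adjusted p = 0.273). DESeq2 called 5 of the 29 in this comparison, beside 9.9% of all genes.

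Upstream of ATF4, the 18 genes of the eIF2 kinases, phosphatase and initiation subunits had medians of -0.44 in the high and -0.29 in the low population. The first was positive without normal high replicate 1 (0.35), without normal high replicate 2 (0.76), without AML high replicate 2 (0.0809), with a replicate block (0.36) and with voom (0.60). Eif2ak3, which encodes the ER stress kinase PERK, was at 9.31 and 36.4 CPM in AML high and at 0 and 0.993 CPM in normal high (log2 fold change 5.50, SE 2.38, edgeR adjusted p = 0.388). Eif2s1, the eIF2 subunit that carries the phosphorylation, was at 200 and 210 CPM in AML high and 49.9 and 60.0 CPM in normal high (log2 fold change 1.90, SE 0.73, edgeR adjusted p = 0.352). Of the 11 ER stress sensors and transducers, 5 were above 0 in the high population, with a median of -0.53, which ran from -0.55 to 0.73 with single libraries left out and was 0.34 without normal high replicate 1. Ern1, which encodes IRE1, was at 56.6 and 84.9 CPM in AML high and at 0 and 0.709 CPM in normal high (log2 fold change 7.60, SE 2.39, edgeR adjusted p = 0.282), beside the lower Xbp1. Ern1 in AML low, at 0.652 to 25.1 CPM, covered nearly the range of normal low, 0.756 to 27.2 CPM.

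The 25 ER chaperones and folding enzymes other than Hspa5 had 9 genes above and 16 below 0 in both populations, with medians of -0.47 in the high and -0.23 in the low. Without normal high replicate 1 the first was -0.52, and without normal high replicate 2 it was 0.0649. They summed to 7415 and 9397 CPM in AML high and 12090 and 13630 CPM in normal high. Stromal sums were also lower in AML high, 6621 and 44700 against 83990 and 64140 CPM. Within the AML pair both sums had the same order, and within the normal pair the opposite order. The part of stromal RNA in the level of this list was not tested. Sdf2l1, a partner of BiP, was at 1.05 and 5.20 CPM in AML high and at 30.0 and 70.6 CPM in normal high (log2 fold change -4.01, SE 1.03, edgeR adjusted p = 0.222). Serpinh1, the collagen chaperone, was at 828 and 1203 CPM in AML high and at 1921 and 5353 CPM in normal high. The 27 genes of ER associated degradation and translocation had medians of -0.27 and -0.16, with 8 and 9 above 0, and the first was -0.0648 without normal high replicate 1 and -0.67 without AML high replicate 2. The 20 cytosolic tRNA synthetases, many of them ATF4 targets, had medians of -0.25 and -0.26, the first running from -0.97 to 0.13 with single libraries left out. The second was 0.0683 with a replicate block. Hars, for histidine, was at 1.57 and 2.23 CPM in AML high against 112 and 165 CPM in normal high (log2 fold change -6.18, SE 1.08, edgeR adjusted p = 0.109) and Qars, for glutamine, lay the other way, at 90.3 and 123 against 1.26 and 8.09 CPM (log2 fold change 4.51, SE 1.06, edgeR adjusted p = 0.176).

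Mitochondrial chaperones and proteases were the list with the largest positive median in the high population, 0.65 with 12 of 15 above 0, and -0.08 with 5 of 15 above 0 in the low. The first rested on AML high replicate 1 and was -0.72 without it. Grpel2, a cofactor of the mitochondrial HSP70, was at 5.23 and 108 CPM in AML high and at 0 and 2.55 CPM in normal high (log2 fold change 5.46, SE 1.87, edgeR adjusted p = 0.310), so that its level too was uneven within the AML pair. The summed level of the list did not follow its median: 1632 and 793 CPM in AML high and 1125 and 1103 CPM in normal high. The 18 cytosolic heat shock genes had medians of 0.24 and -0.04, and the first was -0.58 without AML high replicate 1. Hspa1a, an inducible HSP70, was at 254 and 2816 CPM in AML high and 22.3 and 367 CPM in normal high, and at 118 to 1711 CPM in AML low and 42.5 to 212 CPM in normal low (log2 fold change in the low population 2.58, SE 0.95, edgeR adjusted p = 0.742). The 10 cell death genes downstream of CHOP were split, 5 above 0 in the high and 6 in the low population, with medians of -0.09 and 0.04, the first running from -0.80 to 2.13 with single libraries left out. Bcl2, which CHOP represses, was at 72.1 and 87.5 CPM in AML high and at 1.70 and 14.5 CPM in normal high (log2 fold change 3.30, SE 1.42, edgeR adjusted p = 0.386), the libraries in which Ddit3 was also the higher.

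**Figure D4:**
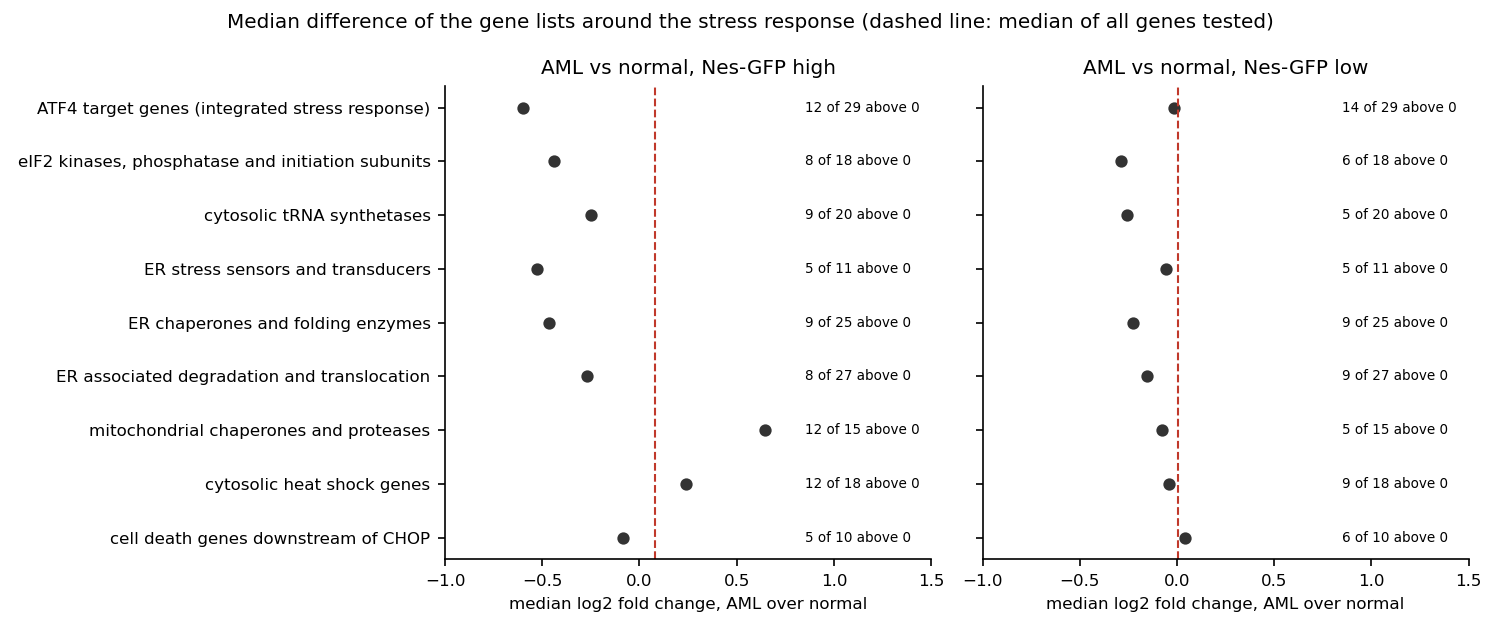
Median log2 fold change of AML over normal mice for the 9 gene lists in the Nes-GFP high (left) and low (right) population, with the number of genes above 0 beside each and the median of all genes tested as a dashed line. Mitochondrial chaperones and proteases lay at 0.65 in the high population, or -0.72 without AML high replicate 1, and ATF4 target genes at -0.60, or 0.81 without normal high replicate 1.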

How the data were processed

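Per the labels and the methods of the study, the authors used Trim Galore 0.4.1 for trimming, TopHat2 2.1.0 for alignment (mm10) and featureCounts for counting. The deposited table holds raw read counts by gene symbol, made without molecular identifiers, so floors cover counting error only. It has 16 library columns, of which 2 belong to no sample mapped here and were not used, and 13 symbols stand on 2 lines each.

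Groups follow the labels. edgeR 4.0.16 in R 4.3.3 fitted all 14 libraries with 4 groups, TMM, filterByExpr (minimum count 10) and the two-sided quasi-likelihood test, with Benjamini-Hochberg adjusted p under 0.05 over 18152 genes. SEs were derived from the F statistic. Alternatives were DESeq2 1.42.0, limma 3.58.1 voom with quality weights per sample, size factors of DESeq2, no filter, a mean of at least 10 CPM, a replicate block, only the groups compared, and each library left out. Leaving out the low libraries with erythroid sums over 5000 CPM or myeloid sums over 20000 CPM was added after seeing the data. Steps were tested on simulated data with large changes set in AML low, in the comparison of AML against normal low only. The comparisons that use the high groups were not covered. No 2 libraries of a group were copies (chi-square of their counts 89.7 to 388 per degree of freedom).

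Named genes are the 10 genes, up to 3 genes with the smallest p per list and comparison, the nearest genes by root mean square difference of centred log2(CPM + 1), Nes, Cxcl12, Lepr, Kitl, Ptprc, Pecam1, and pseudogenes or overlapping genes. The genes and lists were chosen with earlier results of these data known. Gene models were GENCODE M21 and promoter sequences RefSeq (GRCm38.p6). Python 3.11.15, pandas 2.3.3 and matplotlib 3.10.9 made the tables and figures.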

Additional observations from a re-analysis of the deposited data

Results flagged for a closer look

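In groups of 4 or 6 libraries, 4 of 20 combinations of gene and group had a single library far from the rest, where chance gives about 1 in 20. The 4 cannot be set against that rate as separate cases. Asns and Hspd1 stood out in the same library, and for Chac1 and Trib3 the other libraries of the group held no read. In AML low, Asns was at 103 CPM and Hspd1 at 215 CPM in replicate 4, the library with the fewest counts and the largest erythroid sum of its group, against 22.9 to 30.3 and 57.2 to 68.2 CPM in the others. Chac1 was at 1.66 CPM in AML low replicate 3 and at 0 in the others of that group. Trib3 was at 2.74 CPM in normal low replicate 3 and at 0 in the others. What set these libraries apart was not tested.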

How the results depend on the processing

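Under edgeR, 0 of the genes were called in every comparison with each setting tried, including with each library left out. DESeq2 called 2 in AML against normal high, 1 (Chac1) in the difference between populations and 1 (Chac1) in high against low in AML mice. Among the high libraries Chac1 had reads in normal high replicate 1 only, and among AML low libraries in replicate 3 only. Over all genes, edgeR called 0 in each of the 5 comparisons, whereas DESeq2 called 1602, 144, 778, 1746 and 1103. The cause was not tested.

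The replicate numbers were not taken as pairs in the main fit. Same-numbered libraries did not all deviate together (correlations of -0.136 to 0.372). This cannot exclude pairing, since the high groups have 2 libraries each, whose deviations mirror each other. With a replicate block 0 of the genes were called and some log2 values turned sign: Hspd1 high 0.32, Asns low 0.62, difference of Asns -2.38, and for high over low Asns 1.32 and Hspa5 -0.24 in normal mice, Chac1 2.58 and Hspd1 0.54 in AML mice. With voom the sign turned for Atf5 (2.40) and Hspd1 (1.144) in the high population, for the difference of Asns (-0.50) and for Sesn2 (-1.18) and Hspd1 (0.40) in AML high over low. Without the erythroid-rich low libraries it turned for Atf4 (0.0708) and Sesn2 (0.29) in the low population, the difference of Asns (-0.25) and Hspd1 (0.57) in AML high over low. Without the myeloid-rich ones it turned for Sesn2 low (0.45) and Xbp1 in AML high over low (0.24).

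With single libraries left out, log2 values ran in the high population from -1.19 to 6.65 for Atf5, -4.18 to 1.37 for Asns, -3.77 to 6.31 for Sesn2 and -1.07 to 3.67 for Hspd1. In the low population they ran from -0.60 to 0.11 for Atf4, -0.15 to 0.55 for Ddit3 and -1.25 to 0.16 for Sesn2. Differences between populations ran from -8.68 to 3.93 for Chac1, -2.95 to 2.68 for Asns and -3.60 to 6.49 for Sesn2. High over low ran from -1.40 to 0.0882 for Atf4, -7.10 to 0.67 for Atf5 and -9.02 to 3.61 for Chac1 in normal mice, and from -4.87 to 1.85 for Sesn2, -0.63 to 0.35 for Xbp1 and -0.51 to 0.57 for Hspd1 in AML mice. In the high population 1 remaining library was then assumed to vary like the other groups. Leaving out normal high replicate 1 gave no value for Chac1 in the high population, and neither did leaving out AML low replicate 3, or the myeloid-rich low libraries, in AML high over low.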
